A study of Mus musculus with 15 samples.

Results

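Rcn1 encodes reticulocalbin-1, and its relatives Rcn2, Rcn3, Calu and Sdf4 encode reticulocalbin-2, reticulocalbin-3, calumenin and the Golgi protein Cab45. These 5 genes, of 23329 in the count files, form the family described here. They were taken by name. Rcn1 was picked because its fall without Casp2 in neuroblastoma had the smallest p-value of all falls, so its values in that contrast are given as a description with no test, and the question put to the data was whether the other 4 genes were higher where Rcn1 was low. All 5 passed the filter on low counts, which kept 14880 genes.

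Proteins of this family, known as the CREC family, bind calcium with low affinity through multiple EF-hands and stay in the lumen of the endoplasmic reticulum (ER), in the Golgi or, for some forms, leave the cell. Reticulocalbin-1 is a resident of the ER lumen. Calumenin restrains vitamin K dependent gamma-carboxylation and binds the ER calcium pump SERCA2, reticulocalbin-3 takes part in collagen handling in secretory cells, and Cab45 sorts secretory cargo in the trans-Golgi network together with the calcium pump SPCA1. Residence in the ER depends on a signal at the very end of the protein, which a receptor in the Golgi recognises and returns.

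Tumors of 15 mice, each with its own library, were sequenced for RNA and keep the names that the labels give them. The neuroblastomas were 4 Th-MycN and 4 Th-MycN/Casp2-/- paraspinal thoracic tumors on a Sv129/C57BL6 background, with onset at 10 to 21 and 15 to 24 weeks. MYCN is placed there under the promoter of tyrosine hydroxylase, which is active in neuroblasts of the sympathetic lineage, and the tumors were chosen for absent or reduced blood vessels. The lymphomas were 4 EμMyc and 3 EμMyc/Casp2-/- tumors of cervical lymph nodes on C57BL/6, with onset at 13 to 19 and 8 to 12 weeks. In that model c-Myc is under the Eμ enhancer of the immunoglobulin heavy chain, active in the B lineage. Each oncogene was shared by both genotypes of its tumor type, and Casp2-/- mice lack functional caspase-2. In the lymphomas onset and genotype cannot be told apart, because every EμMyc/Casp2-/- tumor arose earlier than every EμMyc tumor, and 1 mouse, EuMycC2ko215, was female. In the neuroblastomas 2 of 4 mice were female with Casp2 and 3 of 4 without it. Each tumor is whole tissue, so fewer cells of a type and less RNA per cell cannot be told apart.

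Libraries held 4940464 to 17638029 reads on genes in the strand column that was used. Casp2 itself was at 100 ± 20.9 CPM (reads of the gene relative to all reads on genes, with TMM scaling; SD, n = 4) in Th-MycN and 58.0 ± 16.7 in Th-MycN/Casp2-/- tumors, with overlapping groups and a log2 fold change of -0.79 (LRT FDR 0.101). It was at 159 ± 34.1 (n = 4) and 62.0 ± 12.6 CPM (n = 3) in the lymphomas, without overlap, with -1.35 (LRT FDR 0.000399, QLF FDR 0.0536). The files count a whole gene and do not show which of its exons were read. Summed markers of sympathetic neuroblasts were at 2412.7 to 4534.6 CPM in the neuroblastomas and at most 16.8 in the lymphomas. Summed B cell markers were at 1802.6 to 4304.7 CPM in the lymphomas and at most 21.3 in the neuroblastomas.

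The ends of the 5 coding sequences are shown because a retrieval signal, where a protein has one, is encoded there. Each is given 5′ to 3′ on the coding strand, as the last bases of the coding sequence with the stop codon, read from GENCODE transcripts of GRCm38, and the capitals mark the last 4 codons before the stop.
Rcn1: gacctgaccaaaaatCATGATGAACTTtga
Rcn2: gacgactacttctatCATGACGAGCTTtaa
Rcn3: gacctgacaaggcacCATGATGAGCTCtga
Calu: gaggccttagtacgaCATGATGAGTTCtga
Sdf4: tatgcccgcaacgtgCATGAAGAGTTCtga
Over these 12 bases Rcn1 differed from Rcn2 at 2 positions, from Rcn3 at 2, from Calu at 3 and from Sdf4 at 4, while Calu differed from Rcn3 and from Sdf4 at 1. These counts are of bases and not of amino acids. In one-letter code the 4 codons encode HDEL in Rcn1, Rcn2 and Rcn3, HDEF in Calu and HEEF in Sdf4. The genes lie on 5 chromosomes. Rcn1 (ENSMUSG00000005973.6) is at chr2:105386291-105399319 on the minus strand, Rcn2 (ENSMUSG00000032320.7) at chr9:56041845-56061882 on the plus strand, and Rcn3 (ENSMUSG00000019539.11) at chr7:45082913-45092221 on the minus strand. Sdf4 (ENSMUSG00000029076.14) is at chr4:155992872-156013610 on the plus strand. Calu (ENSMUSG00000029767.16) is at chr6:29348069-29377110 on the plus strand, on the same chromosome as Casp2 and 12.9 Mb from it. Coding sequences of any 2 members were 56.2% to 65.9% identical, with no shared run longer than 21 bases, so a read of 50 bases from one coding sequence does not occur in another. Against all other annotated genes, Rcn1 and Rcn2 transcripts shared no run of 50 bases, Rcn3 shared one with 1 gene, Sdf4 with 199 and Calu with 580.

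Rcn1 was high in Th-MycN neuroblastomas, intermediate in both kinds of lymphoma and low in Th-MycN/Casp2-/- neuroblastomas. In the Th-MycN tumors it was at 96.9 CPM in MYCN175, 218 in MYCN235, 257 in MYCN332 and 252 in MYCN391. In the Th-MycN/Casp2-/- tumors it was at 8.56 CPM in MYCNC2ko118, 11.2 in MYCNC2ko144, 7.23 in MYCNC2ko176 and 11.2 in MYCNC2ko180. The lowest Th-MycN tumor, MYCN175, was still 8.63 times the highest Th-MycN/Casp2-/- tumor, and the reads behind these values were 1588 to 4454 in the first group and 75 to 175 in the second. Group means were 206 ± 74.6 CPM (SD, n = 4) and 9.56 ± 2.0 CPM (n = 4), a log2 fold change of -4.43 (SE 0.29), or 21.5-fold lower without Casp2.

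**Figure D1:**
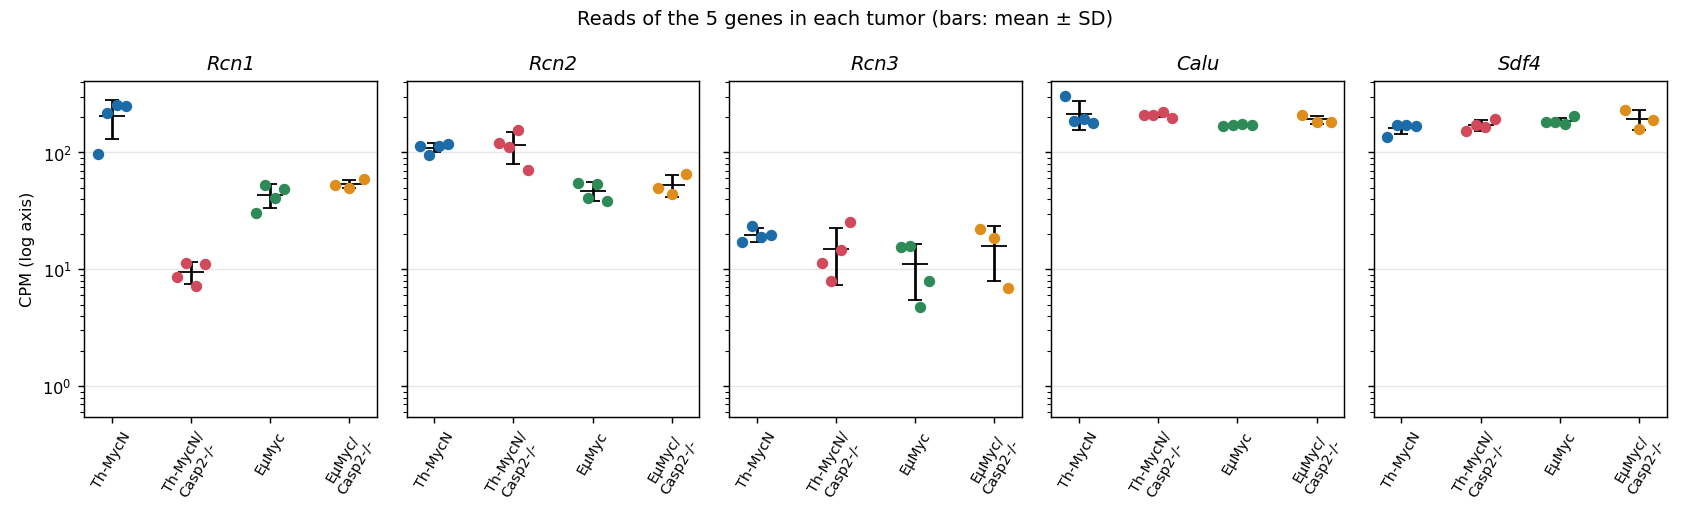
CPM on a log axis for each member (panels) in each tumor (points), by group, with the mean and SD of the group as bars. Rcn1 spans 7.23 to 257 CPM over the 4 groups and its 2 neuroblastoma groups lie apart, while each of the other 4 genes overlaps between the neuroblastoma genotypes.

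Among the 93 genes called lower without Casp2 in neuroblastoma, Rcn1 came first by p-value and 12th by the size of its log2 fold change. A called gene, or DEG, had an FDR under 0.05 in edgeR's likelihood ratio test (LRT) and an absolute log2 fold change over 1. Such falls made up 0.625% of all genes tested, and since Rcn1 was chosen on this contrast its place there is only how it came to be described. Next after it stood Dgkk, a diacylglycerol kinase, at 74.7 ± 10.97 against 3.34 ± 2.68 CPM and a log2 fold change of -4.48, and Astn2, an astrotactin of neurons, at 5.09 ± 1.90 against 0.260 ± 0.117 CPM and -4.27. Rftn1, which encodes the lipid raft protein raftlin, came after them with -1.44. The last fall inside the FDR threshold was Nlrp1b, an inflammasome sensor, with a log2 fold change of -2.69, and the first outside was Stk32b, a kinase, with -2.73.

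The same gene went the other way in the lymphomas, by an amount within the spread. Rcn1 was at 30.2 CPM in EuMyc614, 52.8 in EuMyc743b, 41.2 in EuMyc829 and 49.1 in EuMyc835, and at 52.7 in EuMycC2ko215, 50.0 in EuMycC2ko239 and 58.9 in EuMycC2ko245. The groups overlapped, with means of 43.3 ± 10.0 (n = 4) and 53.9 ± 4.55 CPM (n = 3). The log2 fold change was 0.32 (SE 0.31, 95% interval -0.29 to 0.92, LRT FDR 0.835, and 0.811 in edgeR's quasi-likelihood test, QLF). In order of level, Th-MycN stood above EμMyc/Casp2-/- and EμMyc, which overlapped, and both stood above Th-MycN/Casp2-/-, with no other overlap between neighbours. Every EμMyc/Casp2-/- lymphoma held at least 4.45 times the Rcn1 of the highest Th-MycN/Casp2-/- neuroblastoma. The lymphoma against neuroblastoma difference had opposite signs, -2.25 (SE 0.28) with Casp2 and 2.49 (SE 0.31) without it on the log2 scale, and the genotype by tumor type interaction was 4.74 (SE 0.42). These 3 values rest on the neuroblastoma groups on which Rcn1 was chosen and are not tested.

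Within a tumor, Rcn1 stood above 80.8% to 95.6% of the tested genes in Th-MycN and 30.0% to 34.1% in Th-MycN/Casp2-/- neuroblastomas, counted by CPM. CPM is not divided by gene length here, so these shares mix level with length. In the lymphomas it stood above 56.3% to 70.1%. Rcn1 transcripts were thus counted in each of the 15 tumors, with the lowest count 75 reads where 3 reads correspond to 0.170 to 0.607 CPM.

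None of the 4 relatives was called higher without Casp2 in neuroblastoma, where 0.188% of all genes were. Their LRT FDR was 1 in each case, the QLF FDR was at least 0.983, DESeq2 also called 0 of them, and 0 had an unadjusted LRT p under 0.05. Intervals of the log2 fold change are given for each gene, because a p that misses the threshold does not show that a gene stayed the same. They reach up to 0.53 for Rcn2, 0.48 for Rcn3, 0.31 for Calu and 0.40 for Sdf4, which correspond to 1.44-fold, 1.40-fold, 1.24-fold and 1.32-fold higher.

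Rcn2, a member of the ER lumen first named for binding a viral oncoprotein, was at 113, 95.6, 113 and 118 CPM in MYCN175, MYCN235, MYCN332 and MYCN391. In MYCNC2ko118, MYCNC2ko144, MYCNC2ko176 and MYCNC2ko180 it was at 121, 111, 157 and 70.5 CPM. The Th-MycN/Casp2-/- tumors thus lay on both sides of the Th-MycN range, with means of 115 ± 35.5 and 110 ± 9.83 CPM (n = 4 each) and a log2 fold change of 0.064 (95% interval -0.40 to 0.53). The tumor with the highest Rcn2, MYCNC2ko176, had the lowest Rcn1 of all 15 tumors. Other tumors did not follow this. MYCNC2ko118, with the next lowest Rcn1, had 121 CPM of Rcn2. MYCN175, lowest in Rcn1 of the Th-MycN tumors, had 113 CPM, within the range of its group.

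Rcn3 was at 17.2, 23.4, 18.7 and 19.7 CPM in MYCN175, MYCN235, MYCN332 and MYCN391. It was at 11.4, 7.96, 14.7 and 25.3 CPM in MYCNC2ko118, MYCNC2ko144, MYCNC2ko176 and MYCNC2ko180. Of the Th-MycN/Casp2-/- tumors 3 lay below every Th-MycN tumor and MYCNC2ko180 above all of them, so the groups overlapped. The log2 fold change was -0.41 (95% interval -1.30 to 0.48), in the same direction as that of Rcn1, and without MYCNC2ko180 it was -0.77, still not called.

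Calu, for calumenin, was at 302 CPM in MYCN175, against 186, 195 and 178 in MYCN235, MYCN332 and MYCN391. It was at 210, 210, 220 and 198 CPM in MYCNC2ko118, MYCNC2ko144, MYCNC2ko176 and MYCNC2ko180. All 4 Th-MycN/Casp2-/- tumors lay above 3 of the Th-MycN tumors and below MYCN175. The log2 fold change was -0.038 (95% interval -0.39 to 0.31) with MYCN175 and 0.18 without it, when the LRT FDR was 0.968 and the groups no longer overlapped. With MYCN175 kept, groups did not overlap in either direction for 6.62% of all genes. That share was not counted without MYCN175.

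Sdf4, for Cab45, was at 137 CPM in MYCN175 and at 172, 173 and 167 in MYCN235, MYCN332 and MYCN391. In MYCNC2ko118, MYCNC2ko144, MYCNC2ko176 and MYCNC2ko180 it was at 152, 171, 164 and 195 CPM. The log2 fold change was 0.075 (95% interval -0.25 to 0.40), with group means of 162 ± 17.1 and 171 ± 17.9 CPM (n = 4 each).

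**Figure D2:**
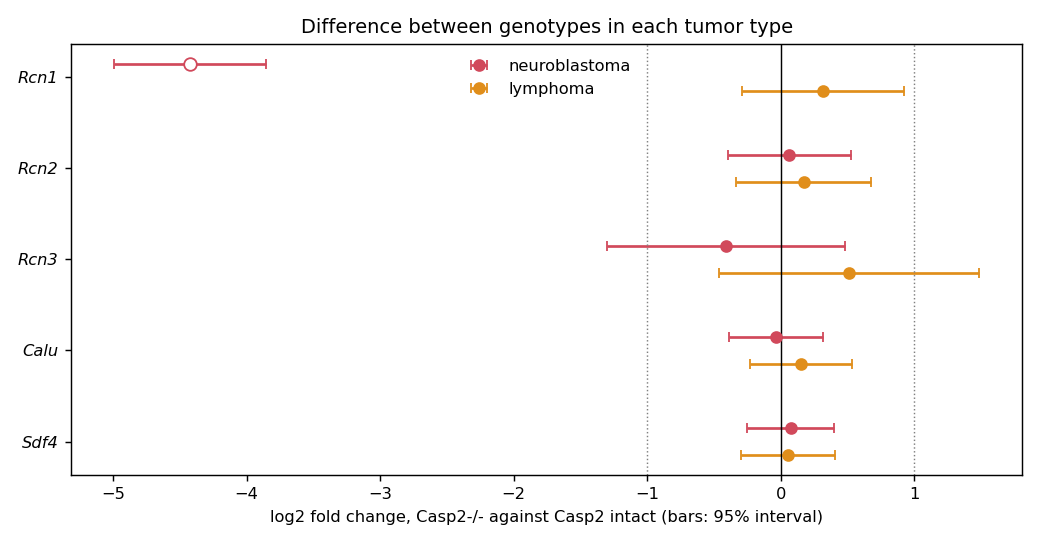
Log2 fold change of Casp2-/- against Casp2 intact tumors for each member in neuroblastoma (red) and lymphoma (orange), with 95% intervals from the fitted model and dotted lines at -1 and 1. The open circle is Rcn1 in neuroblastoma at -4.43, which is a description, and all other intervals include 0.

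MYCN175 lay outside the range of the other Th-MycN tumors in Rcn1, Rcn3, Calu and Sdf4. A search for single tumors far from the others, given below, marked its Calu and Sdf4 CPM but not its Rcn1 and Rcn3 CPM. MYCN175 had 0.400 times the Rcn1, 0.832 times the Rcn3, 1.62 times the Calu and 0.801 times the Sdf4 mean of MYCN235, MYCN332 and MYCN391. It had the latest onset of its group, at 21 weeks, and the highest summed endothelial markers (80.8 CPM, against 52.0 to 56.5 in the other Th-MycN tumors). Its summed sympathetic neuroblast markers (4534.6, against 3682.4 to 3758.3 CPM), fibroblast markers (496, against 254 to 460 CPM) and B cell markers (19.0, against 5.59 to 13.1 CPM) were also the highest of its group, and its Schwann cell markers (35.1, against 41.3 to 80.9 CPM) the lowest. Without it the Rcn1 log2 fold change was -4.65. The 3 neuroblastomas with onset at 15 weeks had 252 CPM of Rcn1 in MYCN391, 8.56 in MYCNC2ko118 and 11.2 in MYCNC2ko180.

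Levels of different genes can be compared only per length, and on the scale of CPM per kb of annotated exons Rcn1 was the leading member in Th-MycN neuroblastomas and the last in Th-MycN/Casp2-/- ones. In Th-MycN tumors it was at 75.7 ± 27.4 CPM per kb, followed by Rcn2 at 54.3 ± 4.86, Calu at 47.5 ± 12.9, Sdf4 at 28.7 ± 3.04 and Rcn3 at 13.2 ± 1.78. In Th-MycN/Casp2-/- tumors Rcn1 was at 3.51 ± 0.734 CPM per kb, below Rcn3 at 9.92 ± 5.0, and the order of the others was Rcn2 at 56.8 ± 17.5, Calu at 46.2 ± 2.0 and Sdf4 at 30.3 ± 3.18. Calu and Sdf4 led in both kinds of lymphoma, with Calu at 38.0 ± 0.440 and 42.2 ± 3.37 CPM per kb and Sdf4 at 33.0 ± 2.15 and 34.2 ± 6.34 (n = 4 and 3). In MYCN175 Rcn1, at 35.6 CPM per kb, stood below Calu at 66.7 and Rcn2 at 55.8, so the lead of Rcn1 held in 3 of the 4 Th-MycN tumors.

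Summed over the 5 genes, the level per length was 194 to 237 CPM per kb in Th-MycN tumors and 134 to 168 in Th-MycN/Casp2-/- tumors, without overlap. Rcn1 held 18.4% of that sum in MYCN175 and 37.4% to 39.9% in the other 3 Th-MycN tumors, against 1.58% to 3.07% in the Th-MycN/Casp2-/- tumors. In EμMyc lymphomas it held 9.36% to 16.1% and in EμMyc/Casp2-/- lymphomas 13.3% to 16.4%. The family sum is not independent of the choice of Rcn1, and that of the 4 relatives is: it was 144 ± 10.2 CPM per kb in Th-MycN and 143 ± 15.2 in Th-MycN/Casp2-/- tumors (n = 4 each). The mean of Rcn1 was lower by 72.2 CPM per kb in Th-MycN/Casp2-/- tumors, and that of the summed relatives was lower by 0.482, with the ranges of 134 to 158 and 130 to 165 overlapping. The sign of that small difference was not stable: the plain CPM sum of the relatives was higher by 3.15 without Casp2, and without MYCN175 the sum per length was 139 ± 4.07 CPM per kb in Th-MycN tumors (n = 3), so that the Th-MycN/Casp2-/- mean was higher by 4.33.

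**Figure D3:**
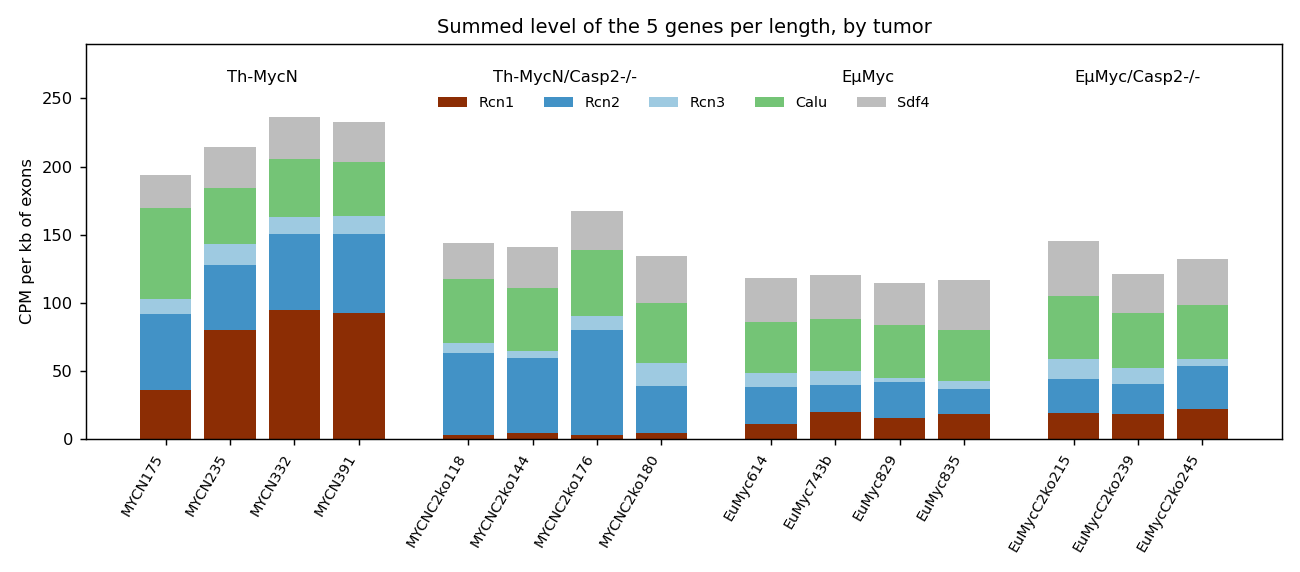
Stacked bars of CPM per kb of exons for the 5 genes in each tumor, by group, with Rcn1 at the bottom of each bar. The Rcn1 segment holds up to 39.9% of the bar in Th-MycN neuroblastomas and 1.58% to 3.07% in Th-MycN/Casp2-/- ones, while the segments above it sum to 134 to 158 and 130 to 165 CPM per kb.

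In the lymphomas no member was called without Casp2 by LRT, where 1.44% of all genes were, nor by QLF or DESeq2, and 0 had an unadjusted p under 0.05. Rcn2 was at 38.2 to 55.3 CPM in EμMyc and 44.0 to 65.0 in EμMyc/Casp2-/- tumors, with a log2 fold change of 0.17 (95% interval -0.34 to 0.68, LRT FDR 0.897). Rcn3 was at 15.5, 16.0, 4.80 and 7.96 CPM in EuMyc614, EuMyc743b, EuMyc829 and EuMyc835 and at 22.1, 18.4 and 6.96 in EuMycC2ko215, EuMycC2ko239 and EuMycC2ko245. That is a spread of over 3-fold within each genotype, and the log2 fold change of 0.51 had an interval of -0.46 to 1.49 (LRT FDR 0.835). Sdf4 was at 177 to 204 and 160 to 231 CPM, a log2 fold change of 0.052 (95% interval -0.30 to 0.40, LRT FDR 0.971).

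Calu was the only member whose lymphoma groups did not overlap. It was at 170, 173, 175 and 173 CPM in the 4 EμMyc tumors and at 209, 183 and 182 in EuMycC2ko215, EuMycC2ko239 and EuMycC2ko245. The shift was small, with a log2 fold change of 0.15 (95% interval -0.23 to 0.53, LRT FDR 0.872), and Calu was not called. Groups did not overlap in that direction for 1.75% of all genes. Summed T cell markers were at 36.3 to 992 CPM in EμMyc/Casp2-/- and 5.68 to 55.5 in EμMyc tumors, with overlap. Of 6 markers 4 were called higher by LRT, 1 by DESeq2 and 0 by QLF, and none was at 0 in every tumor of either group. Of all genes 1.44% were called in either direction by LRT and 0.141% by QLF. By LRT, 0 were called in the fibroblast, endothelial, Schwann cell, macrophage and B cell lists and 1 in the sympathetic neuroblast list. The tumor with the highest Calu, EuMycC2ko215, also had the highest T cell markers, and without it the Calu log2 fold change was 0.097. The part of these cells in the Calu values was not tested.

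Between tumor types, Rcn2 was the relative that was called. It was lower in EμMyc than in Th-MycN tumors by a log2 fold change of -1.23 (95% interval -1.69 to -0.76, LRT FDR 1.15e-06, QLF FDR 0.000202), with 46.9 ± 8.80 against 110 ± 9.83 CPM (n = 4 each) and no overlap. In the Casp2-/- tumors it was lower by -1.12 (95% interval -1.63 to -0.62, LRT FDR 6.51e-05, QLF FDR 0.00105), again without overlap, as for 54.8% of all genes, the highest lymphoma being at 65.0 and the lowest neuroblastoma at 70.5 CPM. Of all genes, 28.5% were called lower in EμMyc than in Th-MycN tumors and 27.6% in the comparison of Casp2-/- tumors, so a call in this direction was common. The second value rests on the lowest and highest Rcn2 among few tumors: it was -0.95 without MYCNC2ko176 and -0.95 without EuMycC2ko239, at FDR 0.000651 and 0.00557, and so under the 2-fold threshold.

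Rcn3, Calu and Sdf4 were not called between tumor types. With Casp2 their groups nonetheless did not overlap, Rcn3 and Calu being lower and Sdf4 higher in lymphoma, with log2 fold changes of -0.84 (95% interval -1.73 to 0.060, LRT FDR 0.102), -0.32 (-0.67 to 0.032, LRT FDR 0.110) and 0.20 (-0.13 to 0.52, LRT FDR 0.298). That is the case for 59.4% of all genes in that comparison. Without Casp2 all 3 overlapped, with log2 fold changes of 0.085 (LRT FDR 0.896), -0.13 (LRT FDR 0.576) and 0.18 (LRT FDR 0.408). The interaction of genotype and tumor type, called for 0.914% of all genes, was not called for any relative. Its estimate was 0.11 for Rcn2, 0.92 for Rcn3 (95% interval -0.40 to 2.24, LRT FDR 0.796), 0.19 for Calu and -0.023 for Sdf4.

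Other genes of the ER lumen were counted from a fixed list. Of its 30 genes for ER folding and calcium storage, all tested, 0 were called in neuroblastoma, where 0.813% of all genes were called in either direction, and by the QLF test, which called 0.0336% of all genes, and by DESeq2 also 0, with 2 at an unadjusted LRT p under 0.05. At these shares a list of 30 genes is not set apart by having no call. The share of all genes at an unadjusted p under 0.05 is not given. Counts at that p, here and below, therefore have no background beside them. Their median log2 fold change was -0.17 (range -1.01 to 0.48), beside -0.00244 over all genes. In lymphoma 0 were called by LRT, QLF or DESeq2, 2 had an unadjusted p under 0.05, and 1, Nucb2, passed the FDR threshold with a fall under 2-fold, as 0.323% of all genes passed it with a fall of any size. QLF called 0.141% of all genes there. Nucb2 encodes nucleobindin-2, another EF-hand protein of the secretory pathway. It was at 37.1 ± 4.64 CPM in EμMyc and 19.3 ± 4.75 in EμMyc/Casp2-/- tumors. Its log2 fold change was -0.93 (SE 0.24, LRT FDR 0.0175, QLF FDR 0.140), without overlap. In neuroblastoma Nucb2 was at 32.7 ± 5.56 CPM with Casp2 and 45.4 ± 4.42 without it, a log2 fold change of 0.48 (LRT FDR 0.514) with groups that did not overlap. Its interaction was the one call in this list (LRT FDR 0.00802), with no call by QLF, which called 0.0538% of all genes.

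The other 2 genes named from that list were Sdf2l1, a component of the ER chaperone complex, and Manf, a protein of the ER lumen raised under ER stress. Sdf2l1 had log2 fold changes of -0.49 in neuroblastoma (LRT FDR 0.803) and 0.74 in lymphoma (LRT FDR 0.317). For Manf they were -0.47 (LRT FDR 0.510) and 0.17 (LRT FDR 0.884). Neither was called.

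Of 19 calcium channels and pumps of the ER and Golgi, 17 were tested and 0 were called in either tumor type without Casp2 by LRT, QLF or DESeq2, with 2 at an unadjusted LRT p under 0.05 in neuroblastoma and 0 in lymphoma. LRT called 0.813% of all genes in neuroblastoma and 1.44% in lymphoma, so 0 among 17 is near the background. Atp2a2, which encodes SERCA2, the pump that calumenin binds, was at 348 to 430 CPM in Th-MycN and 244 to 328 in Th-MycN/Casp2-/- tumors. These groups did not overlap, as for 6.62% of all genes, and the log2 fold change was -0.45 (SE 0.20, LRT FDR 0.501). Atp2c1, which encodes SPCA1, the Golgi pump that works with Cab45, was at 105 to 112 and 76.7 to 96.8 CPM, a log2 fold change of -0.32 (SE 0.19, LRT FDR 0.811), also without overlap. Ryr3, a ryanodine receptor, varied from 2.90 to 19.5 CPM in Th-MycN tumors and had -1.61 (LRT FDR 0.270).

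The list of known partners of the family held 9 genes, Atp2a2 and Atp2c1 among them, and 0 were called in neuroblastoma or in lymphoma by LRT, QLF or DESeq2, with 1 and 0 at an unadjusted LRT p under 0.05. Beside the LRT shares of 0.813% and 1.44% of all genes, 0 among 9 is also near the background. The vitamin K epoxide reductase homologue Vkorc1l1 was at 1.48 to 3.56 CPM in Th-MycN and 0.792 to 1.48 in Th-MycN/Casp2-/- tumors (log2 fold change -0.86, LRT FDR 0.675). The proprotein convertase Pcsk6, which reticulocalbin-3 is known to bind, was at 2.44 to 7.09 and 1.64 to 23.1 CPM (1.35, LRT FDR 0.749). The medians of the list were -0.27 and -0.24 in neuroblastoma and lymphoma, beside -0.00244 and -0.027 over all genes.

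The genes next to Rcn1 on its chromosome were also counted. The 10 tested genes on each side of it on chromosome 2 span 5.99 Mb, from position 104027721 to 110014257. Of these 20 genes 0 were called lower in neuroblastoma by LRT, as 0.625% of all genes were, so a count of 0 among 20 is near the background. QLF called 0, against 0.0336% of all genes, DESeq2 called 1 in either direction, and 2 had an unadjusted LRT p under 0.05. Their log2 fold changes ran from -0.98 to 1.36 with a median of -0.025, and 1 was called higher, against 0.188% of all genes. That one was Bdnf, the neurotrophin, 4275.4 kb from Rcn1, at 35.6 ± 12.4 CPM in Th-MycN and 91.1 ± 32.3 in Th-MycN/Casp2-/- tumors (log2 fold change 1.36, SE 0.37, LRT FDR 0.0402, QLF FDR 0.278). The nearest tested genes, Elp4 at 302 kb and Ccdc73 at 368 kb, had -0.23 and 0.67 with FDR of 1 and 0.934. In lymphoma 0 of the 20 were called by LRT, QLF or DESeq2, with 1 at an unadjusted LRT p under 0.05. LRT called 1.44% of all genes there and QLF 0.141%, so this 0 is near the background too.

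**Figure D4:**
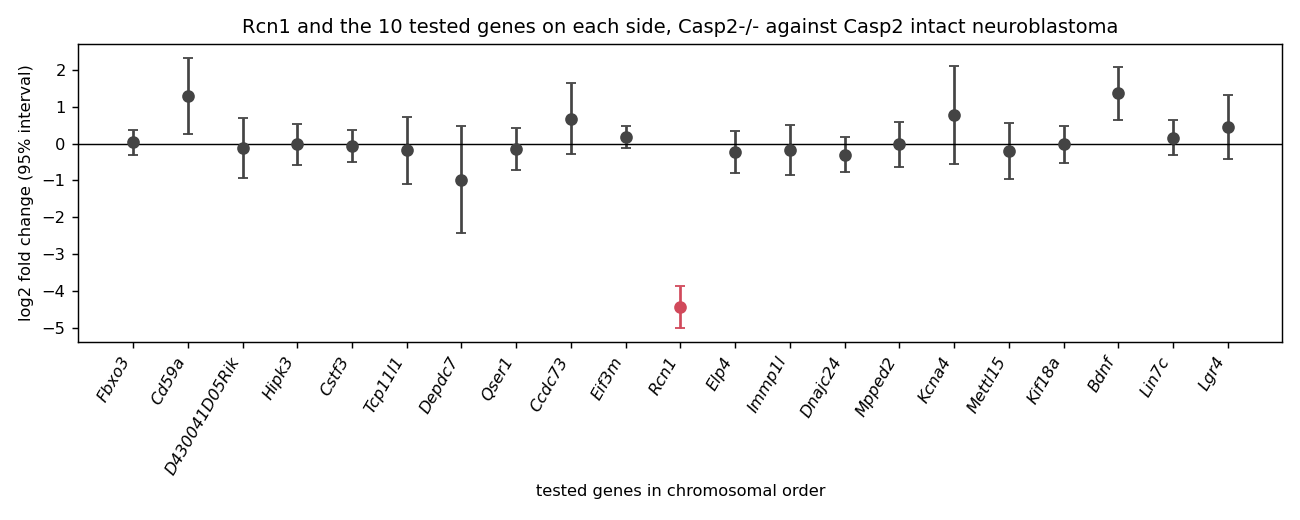
Log2 fold change with its 95% interval for Rcn1 (red) and the 10 tested genes on each side of it (grey), in chromosomal order, between Casp2-/- and Casp2 intact neuroblastomas. Rcn1 is at -4.43 and the neighbours run from -0.98 to 1.36.

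Genes with a profile like that of Rcn1 were ranked by the root mean square difference of log2 CPM, after each gene was centred on its mean. Over the 8 neuroblastomas the 5 closest were Astn2 (0.851), Myh3 (0.854), Megf6 (0.872), Dgkk (0.885) and Faim2 (0.907), where Rcn1 itself deviates from its mean by 2.21. Dgkk and Astn2 are a kinase and a neuronal membrane protein, Myh3 is a myosin of embryonic muscle, Megf6 holds EGF-like repeats and Faim2 is an inhibitor of Fas signalling in neurons. Since Rcn1 was chosen for its fall between these groups, genes with a large fall come first by construction. Within Th-MycN tumors Myh3, Megf6 and Faim2 were lowest in MYCN175, as Rcn1 was, at 10.9, 1.10 and 17.8 CPM, whereas Astn2 was highest there at 7.14 CPM. The relatives stood far down, Rcn3 at rank 1509, Sdf4 at 7742, Rcn2 at 8918 and Calu at 8992 among the tested genes.

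**Figure D5:**
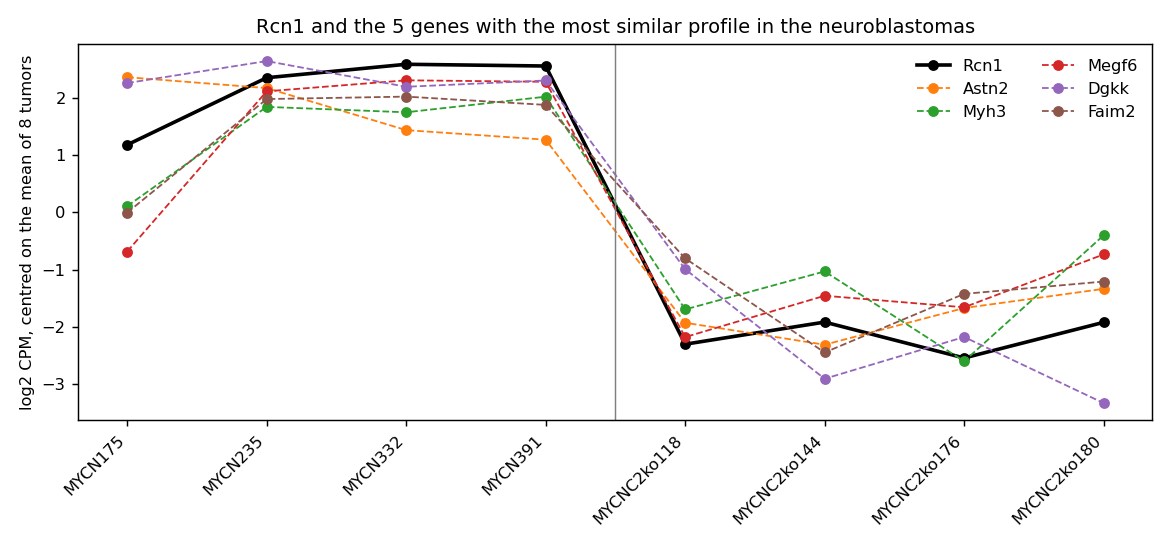
Log2 CPM centred on the mean of the 8 neuroblastomas for Rcn1 (black) and the 5 genes with the closest profile (dashed), with Th-MycN tumors on the left of the line and Th-MycN/Casp2-/- tumors on the right. In MYCN175 Rcn1 is at 1.18 and Megf6 at -0.68, while the other Th-MycN tumors have Rcn1 at 2.35 to 2.58.

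Over all 15 tumors the 5 closest were Mmp12 (1.00), Nlrp1b (1.05), Diras2 (1.06), Gchfr (1.10) and Notch3 (1.12), against a deviation of Rcn1 of 1.63. Mmp12 encodes macrophage elastase, Diras2 a small GTPase, Gchfr the regulator of GTP cyclohydrolase and Notch3 a receptor of vascular mural cells. Among these 5, Diras2 had the CPM nearest to that of Rcn1, not divided by length. Diras2 was at 67.8 ± 29.1 CPM in Th-MycN, 18.9 ± 4.25 in Th-MycN/Casp2-/-, 38.7 ± 14.3 in EμMyc and 32.3 ± 9.57 in EμMyc/Casp2-/- tumors. Its lowest group was the same as for Rcn1, but its range was narrower.

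Of the cell type markers in the neuroblastomas, the summed endothelial list was lower without Casp2, with no overlap between the genotypes. Summed endothelial markers were at 52.0 to 80.8 CPM in Th-MycN and 21.2 to 39.0 in Th-MycN/Casp2-/- tumors, 2 of 6 markers were called lower by LRT and DESeq2 and 0 by QLF, beside 0.625% of all genes called lower by LRT and 0.0336% called by QLF, and none was at 0 in every tumor of either group. Summed sympathetic neuroblast markers were at 3682.4 to 4534.6 CPM in Th-MycN and 2412.7 to 3686.0 in Th-MycN/Casp2-/- tumors, overlapping only at their ends, with 0 of 7 called by LRT, QLF or DESeq2 and 2 at an unadjusted LRT p under 0.05. Th, for tyrosine hydroxylase, had a log2 fold change of -2.55 (LRT FDR 0.0546) with no overlap between the genotypes, and was chosen after its values were seen. Schwann cell markers were at 35.1 to 80.9 and at least 69.2 CPM, fibroblast markers at 254 to 496 and 206 to 588 CPM, and macrophage markers at 76.4 to 113 and 63.6 to 98.1 CPM, with 0 called in these 3 lists by LRT, QLF or DESeq2 and 3 of their markers at an unadjusted LRT p under 0.05. Endothelial markers were at 127 to 252 CPM in the lymphomas, where Rcn1 was lower than in Th-MycN and higher than in Th-MycN/Casp2-/- tumors. Within the Th-MycN group, MYCN175 had the most endothelial markers and the least Rcn1. Within the Th-MycN/Casp2-/- group, MYCNC2ko176 had the fewest endothelial markers (21.2 CPM) and also the least Rcn1 (7.23 CPM). The part of these cells, or of the share of neuroblasts, in the Rcn1 values was not tested.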

How the data were processed

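The authors isolated RNA from frozen tumors, kept samples with an RNA integrity number above the minimum in their protocol, sequenced single reads on an Illumina HiSeq, aligned them to mm10/GRCm38 with STAR and deposited counts of reads per gene without normalization, in 3 columns for either strand and each strand. The column for the second strand was used. It held 48.8% to 49.3% of the reads of both strand columns, so the libraries do not mark strand and this column holds about equal numbers of reads as the first strand column. Rows naming no gene held 66.4% to 71.8% of that column and were left out. A further EμMyc/Casp2-/- tumor is not analysed here.

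A gene was kept when at least 3 tumors had over 1 CPM of it. All 15 tumors entered a single model of 4 groups in R 4.3.3 with edgeR 4.0.16 (TMM scaling, LRT, Benjamini-Hochberg FDR). DEGs passed an FDR of 0.05 and changed by over 2-fold. The 95% intervals are the estimate ± 1.96 SE. The fits were also run on counts simulated from the fitted means and dispersions. These share the model of the tests and cannot show that it suits these tumors. Alternatives were the QLF test, DESeq2 1.42.0, RLE scaling, 2 other filters, the other count columns, onset or sex as covariate, only the groups of a tumor type, and leaving out each tumor. Over all tested genes, DESeq2 called 33 up and 83 down in neuroblastoma, and 161 up and 42 down in lymphoma. Pairs within a group gave chi-square statistics of 17.0 to 81.6 per degree of freedom. A floor of 3 reads was 0.170 to 0.607 CPM and covers counting error only. Tumors came from separate mice.

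The members and lists were chosen with earlier results of these data known. Named genes were the members, the 3 genes of each fixed list with the smallest LRT p in either Casp2 comparison, called genes among the 10 tested neighbours on each side of Rcn1, the 5 genes nearest to Rcn1 in profile, and those next to it in FDR order. Elp4 and Ccdc73 were named after their values were seen, and so were the comparisons with single tumors. Positions and exon lengths came from GENCODE (GRCm38), by symbol, for 90.5% of tested genes. The annotation used for counting and its release are not given in the sources used here.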

Additional observations from a re-analysis of the deposited data

Results flagged for a closer look

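In 3 of the 21 sets of 4 tumors examined for a single tumor far from the others, MYCN175 was that tumor. Chance marks about 1 in 20 independent sets, and these 3 are not independent, since they come from the same tumor and the share of Rcn1 rests on a sum that holds Calu and Sdf4. Calu was at 302 CPM in it, against 178 to 195 CPM in the other Th-MycN neuroblastomas. Sdf4 was at 137 CPM, against 167 to 173 CPM. Rcn1 held 18.4% of the family's summed level per length, against 37.4% to 39.9%. The Rcn1 values in the difference between tumor types were also marked, with an interaction of 4.74 on the log2 scale, which was not tested because Rcn1 was chosen on the neuroblastomas.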

How the results depend on the processing

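No paired analysis was possible because the labels give mouse numbers and no replicate number shared between groups. Of 460 values of the members under the alternatives, 431 were marked as unchanged. For the relatives, and for Rcn1 between lymphoma genotypes, that means the same direction and the same side of the threshold. For the other Rcn1 values, which were not tested, it means the same direction and a shift under the pooled SD of its log2 CPM within groups. Rcn1 in neuroblastoma stayed between -4.65 and -4.21 on the log2 scale. In the lymphomas no alternative called a member, and in neuroblastoma none called a relative. Signs of relatives near 0 turned: Rcn2 in neuroblastoma was -0.053 with onset and -0.023 with sex as covariate. Rcn3 between Casp2-/- tumor types was -0.053 with the column for either strand, -0.19 with the first strand column (added after the data were seen) and -0.41 with onset, and Calu there was 0.13 with onset. The Sdf4 interaction was 0.00666 with DESeq2 and 0.00717 with RLE. The cause was not tested. With onset as covariate Rcn1 between Casp2-/- tumor types was 2.06 and its interaction 4.25. Rcn2 there was -0.87 with onset and -0.98 with sex as covariate, both under 2-fold.

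Leaving out single tumors gave ranges in neuroblastoma of -0.11 to 0.26 for Rcn2 and -0.12 to 0.18 for Calu, and in lymphoma of -0.016 to 0.30 for Rcn2 and -0.081 to 0.19 for Sdf4. For Rcn3 and Rcn2 between Casp2-/- tumor types they were -0.16 to 0.51 and -1.32 to -0.95. Interactions ranged from -0.091 to 0.28 for Rcn2, -0.034 to 0.27 for Calu and -0.16 to 0.11 for Sdf4.

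Counts of DEGs moved far more. QLF called 1 up and 4 down in neuroblastoma, 14 and 7 in lymphoma and 8 for the interaction, where LRT called 28 and 93, 170 and 45, and 136. With onset as covariate they were 17 and 49 in neuroblastoma, 74 up in lymphoma and 65 for the interaction, and with sex 11 and 43, 72 up, and 76. With only the groups of a tumor type they were 97 and 180 in neuroblastoma and 21 and 14 in lymphoma. Leaving out a tumor gave 5 to 53 up and 23 to 134 down in neuroblastoma, with the lowest without MYCN235 and MYCN391 and the highest without MYCN175. In lymphoma it gave 57 to 458 up and 18 to 88 down, with the lowest without EuMycC2ko215 and the highest without EuMycC2ko245, and 55 to 319 for the interaction. The summed CPM of the relatives in EμMyc tumors, where the SD is small, was 405 with RLE, 430 with the column for either strand and 424 with the first strand column, beside 416.

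Groups held 3 or 4 tumors. Rcn3, at 61 to 325 reads, had the widest intervals between genotypes of the members in both tumor types. Rcn1, with as few as 75 reads, had an SE of 0.29 in neuroblastoma, beside 0.46 for Rcn3. What made the Rcn3 intervals wide was not tested.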
